A study of Mus musculus and Rattus norvegicus with 36 samples.

Results

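The 9 genes described here mark successive parts of the kidney's filtering unit, the nephron. They are Nphs1 (podocytes of the glomerulus), Slc34a1, Slc5a2 and Slc22a6 (proximal tubule), Umod and Slc12a1 (thick ascending limb), Slc12a3 and Calb1 (distal convoluted and connecting tubule) and Aqp2 (principal cells of the collecting duct). Every probe set that the platform annotation gives to a member symbol alone was taken, which gave 17 probe sets for the 9 genes, of 45037 probe sets that are not array controls. The values come from whole-genome mouse arrays of kidney, with liver for contrast. Male weanlings of a wild-type colony, mostly of C57 black background, ate a torula-yeast basal diet for 35 days, either unsupplemented (Se-deficient) or with 0.05 or 0.2 µg Se/g added as selenite. Each diet had 3 mice, so there were 9 kidney and 9 liver arrays, and the livers were flushed with potassium chloride in place before removal. All groups carried the same genotype, and the 0.2 µg Se/g diet served as the Se-adequate control. The comparison asks whether the transcripts that define nephron segments differed with Se status.

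As background, blood is filtered through the slits between podocyte foot processes, which nephrin (Nphs1) helps to build. The proximal tubule then recovers most of the filtered phosphate, glucose and amino acids and secretes organic acids, the thick ascending limb and distal convoluted tubule reabsorb salt, and the collecting duct adjusts water. Selenium enters proteins as selenocysteine, and the kidney is the main source of the plasma selenoprotein glutathione peroxidase 3, made in the proximal tubule.

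The arrays were alike in scale. The median log2 level of a kidney array lay between 6.24 and 6.29, and kidney arrays within a diet correlated at 0.992 to 0.997 over the probe sets. The diet contrast was visible in the same kidneys: Selenoh fell by 1.44, Selenow by 1.44 and Gpx1, the cytosolic glutathione peroxidase, by 1.26 on the log2 scale in Se deficiency (limma, adjusted p = 0.00041, 0.0043 and 0.0039). A probe set was called when its limma p, adjusted by Benjamini-Hochberg over all 45037 probe sets, was under 0.05. Levels of different genes were not set against each other, since hybridisation differs between probes. Within a gene, the probe set with the highest kidney mean stands for it below.

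RefSeq windows on GRCm38.p6, from 250 bases before to 50 bases after the transcription start, were held for 7 of the 9 genes, all but Slc5a2 and Calb1. The letters GTTAAT, the core of the site bound by HNF1 factors, which are active in tubule epithelium, were searched on both strands. They occurred in 3 of the 7 windows, those of Slc34a1, Slc22a6 and Umod, and in 7.1% of all 32851 windows. These 3 are printed because they hold the match, which stands in capitals (ATTAAC is the same letters on the other strand). The Slc34a1 window lies at chr13:55399398-55399697 (plus strand), the Slc22a6 window at chr19:8617746-8618045 (plus strand) and the Umod window at chr7:119479213-119479512 (minus strand).
Slc34a1: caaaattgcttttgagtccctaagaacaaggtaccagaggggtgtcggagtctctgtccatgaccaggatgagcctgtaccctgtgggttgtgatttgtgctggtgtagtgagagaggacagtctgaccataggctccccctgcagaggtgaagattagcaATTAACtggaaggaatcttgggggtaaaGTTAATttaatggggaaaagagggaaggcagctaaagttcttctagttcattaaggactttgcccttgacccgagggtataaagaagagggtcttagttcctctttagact
Slc22a6: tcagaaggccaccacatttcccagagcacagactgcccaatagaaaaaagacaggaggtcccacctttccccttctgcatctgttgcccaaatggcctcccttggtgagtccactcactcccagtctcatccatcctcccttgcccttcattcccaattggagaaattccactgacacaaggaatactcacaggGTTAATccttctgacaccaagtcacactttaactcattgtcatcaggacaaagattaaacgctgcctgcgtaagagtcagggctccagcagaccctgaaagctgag
Umod: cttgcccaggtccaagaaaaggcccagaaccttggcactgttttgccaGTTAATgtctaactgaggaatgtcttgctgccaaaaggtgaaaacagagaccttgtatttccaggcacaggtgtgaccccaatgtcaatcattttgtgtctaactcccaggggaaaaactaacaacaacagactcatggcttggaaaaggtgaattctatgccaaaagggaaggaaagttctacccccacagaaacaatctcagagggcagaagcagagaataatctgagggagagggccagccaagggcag

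The match began 61 bases before the start in Slc34a1, where a match on the other strand began 89 bases before it. It began 56 bases before the start in Slc22a6 and 202 bases before it in Umod. Distances count from the start that each window uses, which for Slc34a1 is not the first base of the gene span given below. The overlapping letters GGTTAA stood in the windows of Slc22a6 and Slc12a1 and in 7.75% of all windows. TATAAA stood in those of Slc34a1, 16 bases after the start, and Slc12a3, 32 bases before it (13.6% of all). TGACG, part of the cAMP response element, stood in that of Aqp2 (20.8% of all). A match of letters is a description of the window and does not show that a factor binds there.

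The members are kidney genes, and their levels were set beside those in liver, which does not test the segment a gene marks. For all 9 genes, each of the 9 kidney arrays exceeded each of the 9 liver arrays, and so did 16 of the 17 probe sets, whereas 26.8% of all probe sets had that order. The same 16 were also over 2-fold higher in the mean, against 8.07% of all probe sets. These levels were set by normalizing each tissue apart, so the tissue differences are given as a description with no test. They were 9.83 on the log2 scale (913-fold) for Umod, the most abundant protein of normal urine, 8.01 (258-fold) for Slc34a1, the main phosphate transporter of the proximal brush border, and 7.82 (225-fold) for the calcium-binding protein Calb1. Slc12a1, the Na-K-2Cl cotransporter that loop diuretics block, differed by 7.67 (204-fold), and the organic anion transporter Slc22a6 by 6.44 (86.9-fold). The thiazide-sensitive cotransporter Slc12a3 differed by 5.03 (32.6-fold) and Slc5a2, the glucose transporter SGLT2, by 4.98 (31.5-fold). The smallest differences were those of the vasopressin-regulated water channel Aqp2, at 3.29 (9.8-fold), and of Nphs1, at 1.14 (2.21-fold). The Nphs1 arrays ran from 6.87 to 7.15 in kidney and from 5.66 to 6.01 in liver, a gap of 0.857 between the lowest kidney and the highest liver array.

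**Figure D1:**
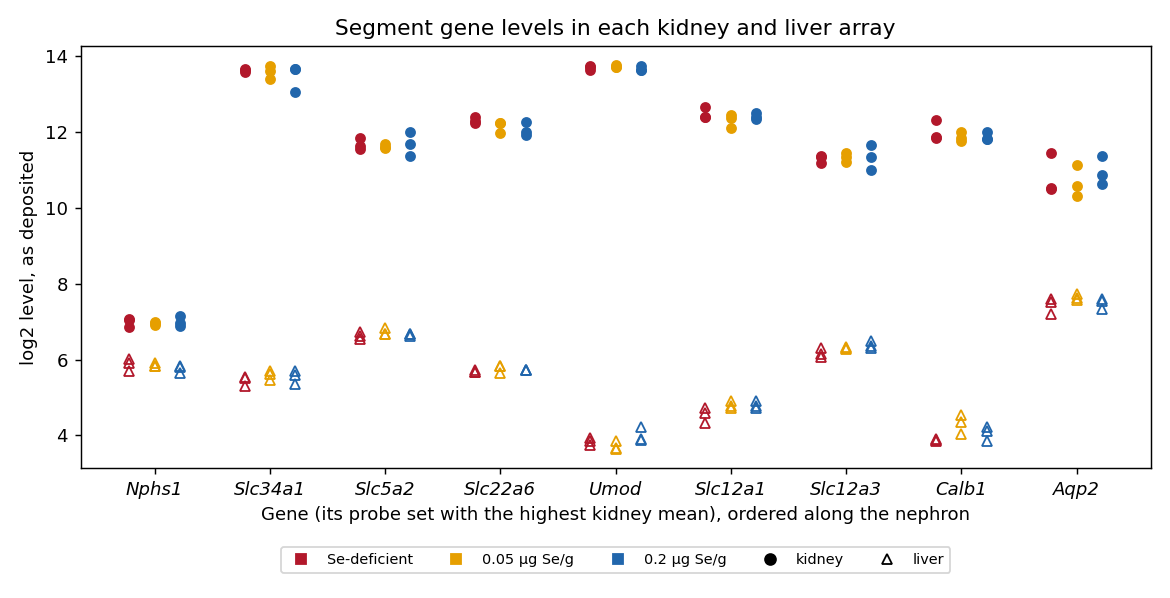
Deposited log2 level (vertical axis) of each segment gene (horizontal axis, glomerulus to collecting duct) in each array; filled circles are kidney, open triangles liver, and colours are the 3 diets with 3 mice each. Kidney and liver arrays are separated for every gene, by the narrowest gap for Nphs1, and in kidney the 3 diets overlap for every gene.

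Probe sets of the same gene differed in how well they separated the tissues. Slc12a3 had a second probe set whose kidney and liver arrays overlapped (a difference of 0.267), although the first differed by 5.03. The second probe set of Slc12a1 differed by 1.37 and the fourth of Calb1 by 1.27. The pair for Umod differed by 9.83 and 9.26, and that for Slc22a6 by 6.44 and 5.83. The pair for Slc5a2 differed by 4.98 and 2.37 (31.5- and 5.17-fold). Beside the 225-fold of the leading Calb1 probe set, others of Calb1 differed by 5.39 (42-fold) and 4.77 (27.3-fold). The probe set standing for a gene was picked by its kidney mean, which favours a large difference. In each gene with several, it had the largest, so the differences listed above lean upward.

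Some values were repeated exactly as deposited, in 8 of the 17 member probe sets in liver and 5 of 17 in kidney. Slc22a6 was listed at 5.7146 in 4 of 9 liver arrays, including all 3 at 0.2 µg Se/g, so the SD of that group was 0. In liver, Slc5a2 was listed at 6.6852 in 3 of 9 and Nphs1 at 5.8418 in 3 of 9. In kidney, Slc12a3 was listed at 11.3412 in 2 arrays and Nphs1 at 6.9515 in 2. An SD of 0, as for Slc22a6 in liver, is no measure of the spread between mice. For Slc12a3 and Nphs1 in kidney, 2 of 9 arrays were equal, and the effect on their errors below was not tested.

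None of the 9 genes passed the test for Se deficiency in kidney. Against 0.2 µg Se/g, 0 of 17 member probe sets were called by limma (0.00666% of all probe sets were called), and 2, both of Slc22a6, had an unadjusted p under 0.05 (5.42% of all). In 0 of 17 did the 3 Se-deficient and 3 Se-adequate arrays not overlap (8.66% of all). The median change of the 9 genes was 0.0318 on the log2 scale, beside -0.00738 over all probe sets, with 6 genes above 0 and 3 below. The median size of change was 0.0703 for the members and 0.0736 over all probe sets. Over the 9 genes the 95% confidence bounds reached from 0.582-fold, the low bound of Aqp2, to 1.42-fold, the high bound of Slc34a1. With 3 mice against 3 the smallest exact p would be 0.1, and the array number limits precision.

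**Figure D2:**
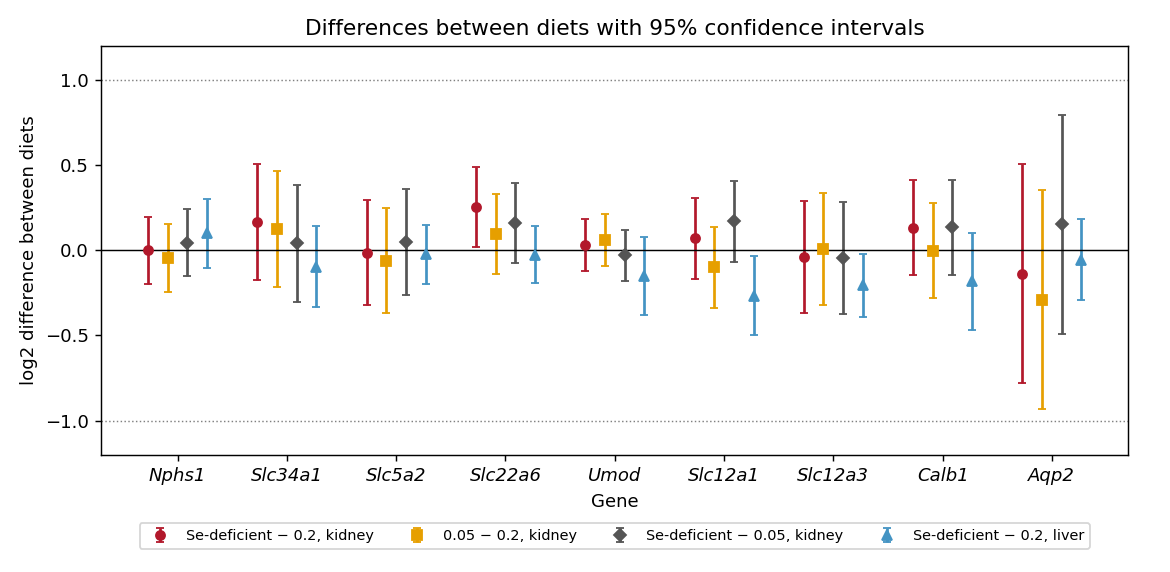
Log2 difference between diets (vertical axis) for each gene (horizontal axis) with 95% confidence intervals from limma, for 3 kidney comparisons and Se deficiency in liver; dotted lines mark a 2-fold difference. Every interval lies inside the 2-fold lines, and those of Aqp2 in kidney are the widest.

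Nphs1 (chr7:30458207-30488623 on GRCm38.p6, as for all positions here) differed little between the diets. Its kidney arrays read 7.07, 6.87 and 7.05 in Se deficiency, 6.95, 6.92 and 6.98 at 0.05 µg Se/g, and 6.88, 6.95 and 7.15 at 0.2 µg Se/g. The 3 ranges overlapped, and the Se-deficient minus Se-adequate difference was 7.07e-05 (SE 0.0892, interval 0.872- to 1.15-fold, limma adjusted p = 1). Of 5 other podocyte genes measured, 0 were called in any of the 3 kidney comparisons, and 0 had an unadjusted p under 0.05 in Se deficiency. Wt1, a podocyte transcription factor, differed by 0.07 (limma adjusted p = 0.94) and Synpo, an actin-associated podocyte protein, by 0.10 (limma adjusted p = 0.949). The kidney mean of Wt1, 5.29, lay below the median of all probe sets, 6.27.

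In the proximal tubule, Slc22a6 (chr19:8617996-8628299) was the member with an unadjusted p under 0.05 at both its probe sets. It read 12.29, 12.23 and 12.39 in the Se-deficient mice, 12.22, 12.24 and 11.97 at 0.05 µg Se/g, and 11.99, 12.25 and 11.92 at 0.2 µg Se/g. The Se-deficient mice stood highest on average, but the lowest of them lay below the highest Se-adequate mouse. The difference was 0.25 (SE 0.11, 1.19-fold, interval 1.01 to 1.4), and the second probe set gave 0.28 (SE 0.11), with a limma adjusted p of 0.893 for both. Leaving out 1 array at a time gave 0.186 to 0.351, with the lowest value without mouse 3 of the 0.2 µg Se/g group.

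Slc34a1 (chr13:55399622-55414695) read 13.645, 13.637 and 13.563 in Se deficiency, 13.733, 13.599 and 13.388 at 0.05 µg Se/g, and 13.649, 13.65 and 13.046 at 0.2 µg Se/g. Mouse 3 of the Se-adequate group was the lowest, the other 8 arrays running from 13.388 to 13.733, and it decided the difference of 0.17 (SE 0.15, limma adjusted p = 0.919), which was -0.0344 without it. The SD was 0.045 in Se deficiency and 0.348 at 0.2 µg Se/g, 3 mice each. Slc5a2 (chr7:128265683-128272430) read 11.83, 11.55 and 11.61 in Se deficiency, 11.68, 11.57 and 11.60 at 0.05 µg Se/g, and 11.99, 11.67 and 11.37 at 0.2 µg Se/g, a difference of -0.01 between the outer diets (SE 0.14, limma adjusted p = 0.993). In each diet mouse 1 was the highest of its 3.

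Of 26 other proximal tubule genes 0 were called in any kidney comparison. At an unadjusted p under 0.05, 4 of the 26 were higher and 1 lower in Se deficiency, beside 5.42% of all probe sets in either direction. Of the 26, 17 lay above 0, with a median of 0.0478. The smallest p belonged to Slc22a12, the urate transporter URAT1, at 0.42 (SE 0.0999, unadjusted p = 0.00189, limma adjusted p = 0.893). Slc13a3, a dicarboxylate transporter, differed by 0.44 (SE 0.13, limma adjusted p = 0.893). Gpx3, the selenoprotein this segment makes, differed by -0.31 (SE 0.0831, limma adjusted p = 0.893).

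In the thick ascending limb, Umod (chr7:119462708-119479262) had the smallest spread of the genes, by the probe sets standing for them. Its kidney arrays ran from 13.612 to 13.752, a range of 0.139 over all 9 mice. The group means were 13.692 ± 0.053 in Se deficiency, 13.721 ± 0.0264 at 0.05 µg Se/g and 13.66 ± 0.0688 at 0.2 µg Se/g (SD, n = 3). The difference in Se deficiency was 0.03 (SE 0.0677, interval 0.921- to 1.14-fold, limma adjusted p = 0.966). Slc12a1 (chr2:125152510-125230002) ran from 12.101 to 12.648, with a difference of 0.07 (SE 0.11, limma adjusted p = 0.95). Of 9 other genes of this segment 0 were called and 1 had an unadjusted p under 0.05 in Se deficiency. Cldn16, a paracellular magnesium and calcium channel, had the smallest p (-0.25, SE 0.0772, limma adjusted p = 0.893), followed by the prostaglandin receptor Ptger3 (0.30, SE 0.205, limma adjusted p = 0.897).

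In the distal convoluted and connecting tubule, Slc12a3 (chr8:94329109-94366222) read 11.17, 11.34 and 11.36 in Se deficiency and 11.34, 11.66 and 10.98 at 0.2 µg Se/g. The Se-adequate mice enclosed the Se-deficient ones, and the difference was -0.04 (SE 0.15, limma adjusted p = 0.985). Calb1 (chr4:15881264-15906709) had group means of 11.996 ± 0.263, 11.861 ± 0.121 and 11.863 ± 0.101 in the order of rising Se (SD, n = 3), and its difference was 0.13 (SE 0.126, limma adjusted p = 0.923). Mouse 3 of the Se-deficient group, at 12.299, was the highest, and without it the difference was -0.0194. Of 9 other genes of these tubules 0 were called and 1 had an unadjusted p under 0.05 in Se deficiency. Trpm6, the apical magnesium channel, differed by -0.30 (SE 0.0903, limma adjusted p = 0.893) and the calcium-binding protein S100g by 0.22 (SE 0.142, limma adjusted p = 0.893).

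Aqp2 (chr15:99579056-99584545) spread most between mice on the same diet. It read 11.43, 10.51 and 10.50 in Se deficiency, 11.12, 10.57 and 10.30 at 0.05 µg Se/g, and 11.37, 10.87 and 10.61 at 0.2 µg Se/g. Mouse 1 was the highest and mouse 3 the lowest in each diet, and the diets overlapped. The difference in Se deficiency was -0.14 (SE 0.29, interval 0.582- to 1.42-fold, limma adjusted p = 0.965). That interval holds the differences compatible with these arrays and is not a limit of detection. The number 1 names a mouse within its diet. The labels do not say that mice with the same number share a litter or a processing day.

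The mean deviation of 11 other principal cell genes had the same order within each diet. It was 0.0859, -0.114 and -0.156 in Se deficiency, 0.121, 0.0299 and -0.262 at 0.05 µg Se/g, and 0.328, 0.0851 and -0.118 at 0.2 µg Se/g. Of these 11 genes 0 were called, 0 had an unadjusted p under 0.05 in Se deficiency, and 1 of 11 lay above 0 in Se deficiency, with a median of -0.111. Elf5, a principal cell transcription factor, differed by -0.48 (SE 0.255, limma adjusted p = 0.893) and the sodium channel subunit Scnn1g by -0.13 (SE 0.0857, limma adjusted p = 0.897). The kidney mean of Elf5, 5.68, lay below the median of all probe sets, 6.27. In whole kidney, fewer cells of a type and less RNA per cell cannot be told apart.

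Lists for other cells had 0 calls in the 3 kidney comparisons. They held 8 intercalated cell, 7 endothelial, 5 fibroblast and pericyte, 7 immune, 2 blood, 4 fat and adrenal, 6 tubule injury and 8 hepatocyte genes. In Se deficiency the fibroblast and pericyte list had 2 genes with an unadjusted p under 0.05, the pericyte receptor Pdgfrb at 0.43 (SE 0.186) and the collagen Col3a1 at 0.32 (SE 0.137), beside 5.42% of all probe sets. All 5 of its genes lay above 0, with a median of 0.179, and the other 7 lists had 0 at that p. Lcn2, which injured tubules release, differed by -0.40 (SE 0.224, limma adjusted p = 0.893), and the adhesion molecule Vcam1 by -0.08 (SE 0.0736, limma adjusted p = 0.917). The smallest p of the other lists belonged to Rhcg (-0.13) and Aqp6 (0.15) of intercalated cells, Pecam1 (-0.18) and Emcn (-0.11) of endothelium, and Adgre1 (0.13) and Cd3e (0.11) of immune cells. In blood they were Hba-a1 (-0.06) and Alas2 (-0.13), in fat and adrenal Cyp11b1 (0.19) and Star (-0.05), and in hepatocytes Cyp7a1 (0.21) and Ttr (-0.30). The limma adjusted p of these ran from 0.893 to 0.967. Kidney means of Lcn2 (4.87), Cyp11b1 (6.03) and Cyp7a1 (6.15) lay below the median of all probe sets, 6.27.

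The lower Se diet gave the same count. At 0.05 against 0.2 µg Se/g, 0 of 17 member probe sets were called (0% of all), 0 had an unadjusted p under 0.05 (2.91% of all), and 1, the third of Calb1, did not overlap, being lower at 0.05 µg Se/g (6.48% of all in either direction). The differences ran from -0.29 for Aqp2 to 0.125 for Slc34a1, with a median of -0.0027 and all limma adjusted p at 1. Leaving out 1 array gave Aqp2 -0.518 (without mouse 1 at 0.05 µg Se/g) to -0.0816 (without mouse 1 at 0.2 µg Se/g). Between Se-deficient and 0.05 µg Se/g kidneys, 0 of 17 were called (0.0111% of all). One probe set, the second of Slc22a6, had an unadjusted p under 0.05 (1.81% of all), and 0 did not overlap (4.66% of all). The F test for any difference among the 3 diets called 0 of 17 (0.0111% of all), with 0 at an unadjusted p under 0.05 (2.94% of all). These comparisons share arrays, so they are not independent.

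In liver these genes read lower than in kidney. Liver means were 3.86 for Umod, 4.09 for Calb1, 4.72 for Slc12a1, 5.53 for Slc34a1, 5.73 for Slc22a6 and 5.84 for Nphs1. These lay below the median liver mean of all probe sets, 6.24, while Slc12a3 (6.29), Slc5a2 (6.68) and Aqp2 (7.52) lay above it. Whether liver differences at such low levels reflect these transcripts was not tested. In liver, 0 of 17 probe sets were called in Se deficiency (0.0222% of all) or at 0.05 µg Se/g (0% of all). At an unadjusted p under 0.05 there were 2, the leading probe sets of Slc12a1 and Slc12a3, in Se deficiency (4.63% of all) and 1, of Umod, at 0.05 µg Se/g (1.95% of all). With the replicate number as a block, which the liver arrays of these diets allowed, the count over all probe sets rose from 10 to 16 and the member count was 0. The median member difference in liver was -0.0956, with 8 of 9 genes below 0, beside -0.0159 over all probe sets. The lowest was Slc12a1 at -0.27 (limma adjusted p = 0.926). The difference between the responses of kidney and liver was tested as an interaction, which called 0 of 17 (0.00222% of all). Slc22a6 at 0.28 (SE 0.13) and Slc12a1 at 0.34 (SE 0.156), each with a limma adjusted p of 0.835, were the members with an unadjusted p under 0.05 (5.79% of all). Slc12a1 differed by 0.07 in kidney and by -0.27 at its low liver level. The liver term of Slc22a6 used the group whose SD was 0. By the study's methods there were 3 mice per diet, so both tissues would come from the same 3 mice of a diet, but the labels do not say that a number marks the same mouse in both. Residuals of same-numbered liver and kidney arrays correlated from -0.114 to 0.249. With that number as a random block (consensus correlation 0.0679) the interaction called 0 of 17 members and 1 probe set in all, as without it.

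The residual SD of Aqp2 between mice on the same diet was 0.451, larger than that of 99.1% of probe sets, while that of Umod was 0.0524, larger than 4.88%. The median over all probe sets was 0.118. Between them stood Slc34a1 at 0.226, Slc12a3 at 0.215, Slc5a2 at 0.2, Calb1 at 0.177, Slc12a1 at 0.142, Slc22a6 at 0.14 and Nphs1 at 0.106. The second, dimmer probe set of Umod had 0.0738. The first read up to 13.752, and the highest value on any kidney array was 14.84. An effect of that high level on its spread was not tested.

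**Figure D3:**
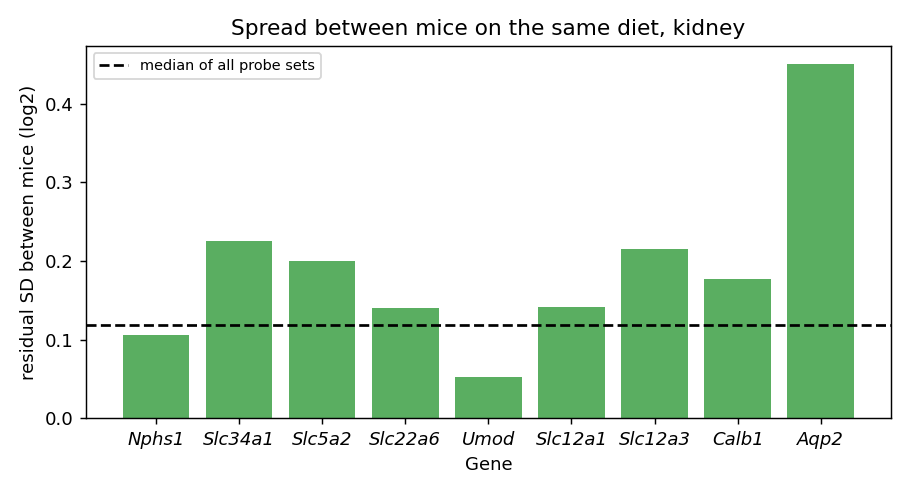
Residual SD of the log2 level between mice on the same diet (vertical axis) for each gene (horizontal axis) over the 9 kidney arrays; the dashed line is the median of all probe sets, 0.118. Aqp2 is the highest at 0.451 and Umod the lowest at 0.0524.

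Mouse 3 at 0.2 µg Se/g was the lowest of the 9 kidneys for 4 of the 9 genes, Slc34a1, Slc5a2, Slc22a6 and Slc12a3, and the highest for Nphs1. The mean deviation of 26 other proximal tubule genes was -0.107 there, the lowest of the 9 arrays. Other lists also stood apart at 0.2 µg Se/g. The 4 measured fat and adrenal genes deviated by 0.758 in mouse 1 and -0.455 in mouse 2, and the 8 hepatocyte genes by 0.701 in mouse 2. Their mean levels overlapped between diets, at 6.28 to 6.74 in Se deficiency and 6.02 to 7.23 at 0.2 µg Se/g for fat and adrenal genes, and 7.77 to 8.14 and 7.65 to 8.64 for hepatocyte genes. Their part in the member values was not tested.

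**Figure D4:**
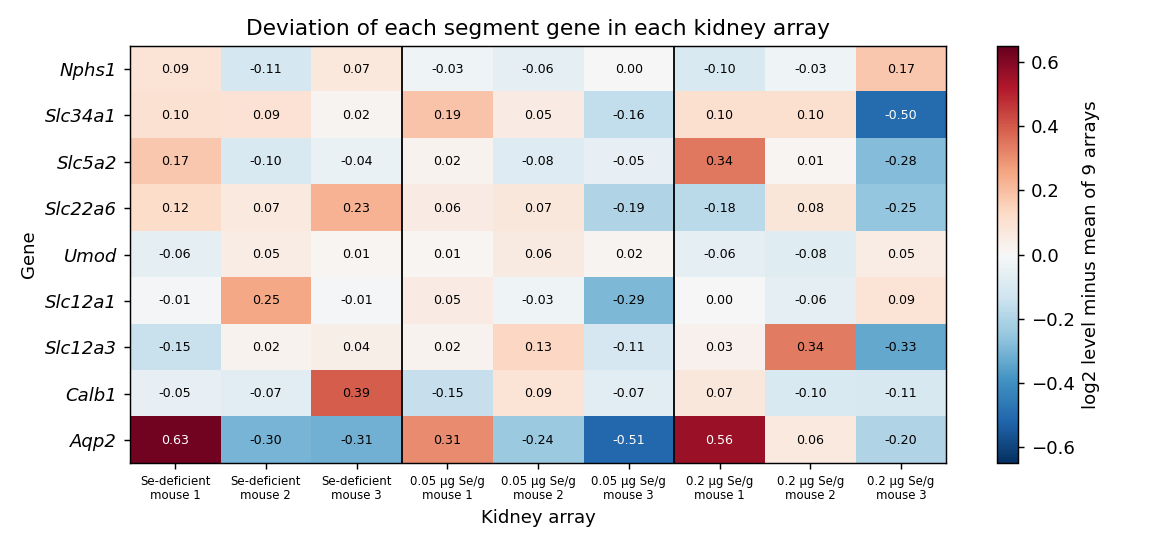
Deviation of each gene (vertical axis) from its mean over the 9 kidney arrays (horizontal axis, by diet and mouse), in log2 units, with the value printed in each cell. Aqp2 is high in mouse 1 of every diet, and mouse 3 at 0.2 µg Se/g is low for the 3 proximal tubule genes and Slc12a3 and high for Nphs1; Umod is near 0 throughout.

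Correlation between the members over the 9 kidney arrays was computed for 36 pairs. Of these, 0 had an adjusted p under 0.05 (exact two-sided permutation test over 9 arrays, Benjamini-Hochberg over 36), and 6 had an unadjusted p under 0.05. Of those 6, 5 were between different segments. The pairs reuse the 9 genes, so they are not independent. The permutations, here and below, treated the 9 arrays as exchangeable across diets and mouse numbers. Their p values do not separate differences between diets from those between mice. The median Pearson r was 0.26 for the 5 pairs of the same segment, all 5 above 0 (0.0966 to 0.659), and 0.0346 for the 31 others, 16 of them above 0. The highest was Slc5a2 with Aqp2 (r = 0.784, exact permutation p = 0.00798, adjusted p = 0.199; rho = 0.683, exact p = 0.0503, adjusted p = 0.53). It was 0.908 without the 2 arrays farthest from the median of Slc5a2. The lowest was Slc5a2 with Umod (r = -0.76, exact permutation p = 0.011, adjusted p = 0.199; rho = -0.817, exact p = 0.0108, adjusted p = 0.388), and it was -0.751 without the 2 arrays. Slc34a1 and Slc22a6 correlated at 0.659 (exact permutation p = 0.0405, adjusted p = 0.287), but at -0.406 without the 2 arrays farthest from the median of Slc34a1, so that relation rested on them. The proximal tubule members Slc34a1, Slc5a2 and Slc22a6, which pair with each other here, were all lowest in mouse 3 at 0.2 µg Se/g.

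Each gene was also set against the other listed genes of its segment, 130 pairs chosen after the values were seen. The pair with the smallest p was Slc22a6 with Slc22a12, at r = 0.948 (exact permutation p = 0.000143, adjusted over 130 pairs p = 0.0186), with rho = 0.867 (exact p = 0.00451, adjusted p = 0.195). It was 0.942 without the 2 arrays farthest from the median and 0.969 after diet means were removed, for which no p was computed. Slc34a1 with the water channel Aqp1 followed at 0.834 (exact permutation p = 0.000463, adjusted p = 0.0301; rho = 0.733, exact p = 0.0311, adjusted p = 0.253), with 0.756 without the 2 arrays. These were the 2 pairs past the threshold by r, and by rho none was. Aqp2 with Fxyd4, a sodium pump regulator of the collecting duct, gave 0.866 (exact permutation p = 0.00184, adjusted p = 0.0681; rho = 0.883, exact p = 0.00308, adjusted p = 0.195), and 0.831 without the 2 arrays. For Aqp2, 10 of 11 principal cell genes had an r above 0, with a median of 0.497, and 51.9% of the 22518 brighter probe sets had. For Slc12a1, 8 of 9 had, with a median of 0.442 (53.1% of the brighter probe sets). For Slc12a3, 8 of 9 had, with a median of 0.35 (51.6%), and for Slc22a6, 18 of 26, with a median of 0.333 (48.1%). For Nphs1, 2 of 5 had (46.4% of the brighter probe sets).

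**Figure D5:**
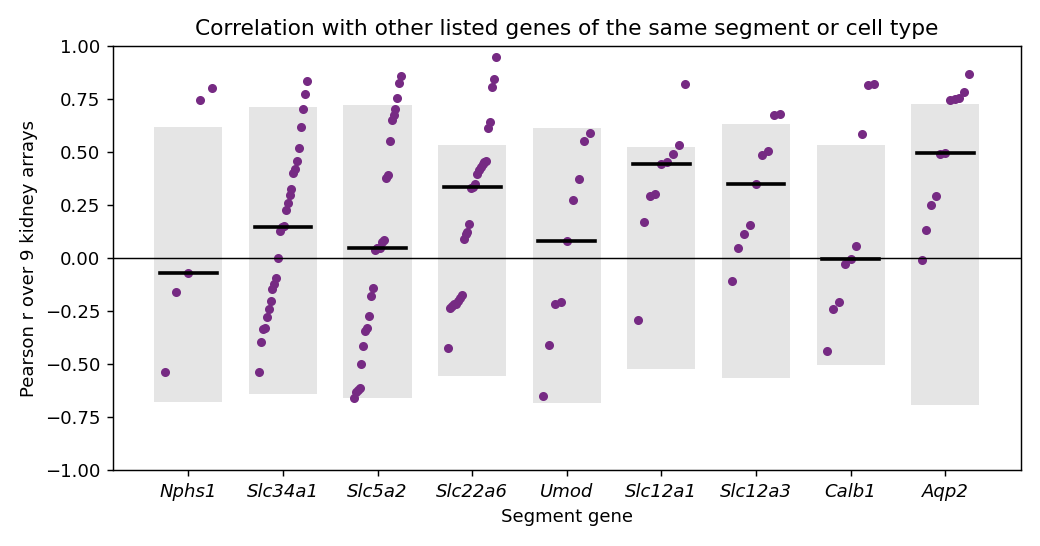
Pearson r over the 9 kidney arrays (vertical axis) between each gene (horizontal axis) and the other measured genes of its segment list, 1 point per gene; black bars are medians and grey bands hold the 5th to 95th percentile of r with all brighter probe sets. The median is highest for Aqp2 at 0.497, followed by Slc12a1 at 0.442, Slc12a3 at 0.35, Slc22a6 at 0.333 and Slc34a1 at 0.148. It lies between -0.069 and 0.0786 for Nphs1, Calb1, Slc5a2 and Umod.

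Across the 19642 probe sets with 1 symbol and a kidney mean above the median, the genes most like each member over the 9 kidney arrays were in none of the segment lists. They were Pde1a (r = 0.968) and Psmd9 (0.959) for Aqp2, Als2cl (0.98) and Map1lc3a (0.973) for Slc34a1, and Sardh (0.963) and Tbrg4 (0.962) for Slc22a6. For Umod they were Arhgap26 (0.943) and D8Ertd738e (0.913). For Nphs1 they were Abitram (0.975) and Lin52 (0.938), for Slc12a3 Prr12 (0.984) and Afmid (0.958), and for Calb1 Rcan2 (0.96) and Tm7sf2 (0.933). Slc5a2 was most like Ppp1r16a (0.975) and Nuak1 (0.964), and Slc12a1 most like Dnaaf5 (0.941) and Orc4 (0.939). These are the highest of many correlations over 9 arrays and are given as a description.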

How the data were processed

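Total RNA was extracted from frozen mouse kidney and liver, messenger RNA was purified, and biotin-labelled cRNA was hybridised to whole-genome arrays. The authors deposited log2 values per probe set, made with GCRMA by the submitters' processing notes, which give no version. The study's methods name RMA from affy, run on each tissue apart. The 18 mouse arrays were used as deposited. The 64 array controls were left out, and the rat values were not used here. Each tissue was fitted on its own with limma 3.58.1 (lmFit with 1 coefficient per diet, eBayes) in R 4.3.3, with Benjamini-Hochberg adjustment over 45037 probe sets and a threshold of 0.05. The interaction used all 18 arrays. Correlations and figures used Python 3.11.15. In simulated data of this design, 67, 67 and 66 of 45037 probe sets were set to change by 0.5, 1 and 2 on the log2 scale. The kidney fit found 43.3%, 92.5% and 98.5% of them. It made 162 calls there, and 3 between the measured Se-deficient and 0.2 µg Se/g kidneys. With fewer calls the adjusted threshold is stricter, so these shares are not detection rates for the members.

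All member probe sets were taken, with list genes that were called or had the 2 smallest p in Se deficiency, and the 2 genes most alike. Symbols come from the platform annotation, with 34945 probe sets on 1 symbol, 932 on several and 9160 on none. The members and lists were chosen with earlier results of these data known. Same-numbered liver arrays of the Se-deficient and 0.2 µg Se/g diets had residual correlations of 0.462, 0.105 and 0.319, above the limit of 0.1. They were taken as pairs only in the alternative with a replicate block, and the reported liver fit had no block. Alternatives covered the samples fitted, variance prior, array weights, dim probe sets, quantile normalization, the replicate block and leaving out each array.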

Additional observations from a re-analysis of the deposited data

How the results depend on the processing

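No member probe set was called in a diet comparison or in the interaction under any alternative run, and 16 of 17 stood higher in all kidney than in all liver arrays under each. The counts over all probe sets ranged, over the alternatives, from 1 to 6 for Se deficiency in kidney (3 as reported), from 6 to 22 in liver (10) and from 1 to 5 for the interaction (1). They ranged from 0, without mouse 3 at 0.05 µg Se/g, to 6 between Se-deficient and 0.05 µg Se/g kidneys (5), and from 1 to 6 for the F test (5). Joint normalization moved the kidney minus liver difference of Umod to 10.01, of Slc34a1 to 8.25, of Slc12a1 to 7.82 and of Slc22a6 to 6.59.

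Same-numbered kidney arrays had residual correlations of 0.107, 0.0903 and 0.276 between Se-deficient and 0.2 µg Se/g mice. They were 0.384, 0.0258 and 0.167 between 0.05 and 0.2 µg Se/g mice, the first for mouse 1. Between Se-deficient and 0.05 µg Se/g mice they were 0.181, -0.136 and 0.0948. In no comparison did all values pass the limit of 0.1, and the kidney arrays were not taken as pairs. These values do not settle whether same-numbered mice share an effect. With the replicate block, the median member difference was 0.0318, as without it, and Slc22a6 had a limma adjusted p of 0.752. Between Se-deficient and 0.05 µg Se/g kidneys the count over all probe sets was 3 with the block and 5 without it.

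Several small differences changed sign, all of them uncalled, and the cause was not tested. With array weights, at 0.05 against 0.2 µg Se/g in kidney, Slc34a1 gave -0.0183, Slc22a6 -0.014, Slc12a3 -0.143 and Calb1 0.0178, and Calb1 gave 0.0137 with quantile normalization. The mean of all probe sets gave 0.0391 for Slc5a2 and 0.0412 for Slc12a3 in Se deficiency. The median interaction of the members was 0.00145 with array weights and 0.183 as reported. Leaving out 1 array at a time gave it 0.0612 to 0.288, and gave the median liver difference -0.143 to -0.0258. In Se deficiency in kidney, leaving out 1 array gave -0.0344 to 0.267 for Slc34a1, -0.166 to 0.145 for Slc5a2, -0.0167 to 0.114 for Slc12a1, -0.211 to 0.126 for Slc12a3, -0.0194 to 0.213 for Calb1, -0.447 to 0.0715 for Aqp2 and -0.0579 to 0.0796 for Nphs1. At 0.05 against 0.2 µg Se/g it gave -0.076 to 0.226 for Slc34a1, -0.215 to 0.0959 for Slc5a2, -0.17 to 0.00242 for Slc12a1, -0.166 to 0.171 for Slc12a3, -0.0693 to 0.0556 for Calb1 and -0.103 to 0.0347 for Nphs1.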
